A study of Homo sapiens with 19 samples.

Results

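The mRNA levels of SH-SY5Y cells that received a G3BP2 siRNA (siG3BP2) were set against those of cells that received a control siRNA (siCtrl). The table of TPM, the level of an mRNA per length and library size, had 19942 protein-coding rows, and the 12229 rows above 1 TPM in at least 1 of these libraries were the members of the comparison. At the edge of this limit, TNFRSF10A entered with 0.570 TPM in siCtrl and 1.00 in siG3BP2, and GLYATL2 stayed out with 0.999 and 0.983. Each siRNA had 1 poly-A RNA-seq library of SH-SY5Y, a human neuroblastoma line of noradrenergic character. The siRNA was used at 10 nM for 24 h, followed by a change of medium and a further 48 h, in otherwise unmodified cells. GEO's treatment text for these samples names sodium arsenite, a stressor, whereas the methods describe none for the knockdown. The same study sequenced a siG3BP1 library, the lysate (Total) and stress granule cores (SG) of arsenite-treated cells, rRNA-depleted RNA of untreated and arsenite-treated cells, and RNA bound to G3BP1 or G3BP2 (eCLIP).

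With 1 library a side, no difference between siCtrl and siG3BP2 has a replicate check, and all ratios describe these libraries. A member was called higher or lower in siG3BP2 when the ratio of TPM was above 2 or below 0.5. Log2 ratios are those of TPM + 1, siG3BP2 over siCtrl, which understate the ratio of low genes. TPM carries no read depth, so no interval for counting error can be given. The protein-coding TPM summed to 646450 in siCtrl and 631330 in siG3BP2.

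G3BP1 and G3BP2 are paralogous RNA-binding proteins. When translation initiation is blocked under stress, untranslated mRNAs and these proteins condense into stress granules, cytoplasmic assemblies for which the G3BP proteins serve as scaffolds. In unstressed cells the G3BP proteins are spread through the cytosol and bind mRNAs there.

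G3BP2 mRNA (ENSG00000138757, GRCh38 chromosome 4, 75641849 to 75724589, minus strand) was at 38.1 TPM in siCtrl, 11.4 in siG3BP2, 39.4 in siG3BP1 and 28.1 in Total. The siG3BP2 library was the lowest of these 4, with 0.299 times the siCtrl level. G3BP1 (ENSG00000145907, chromosome 5, 151771045 to 151812911, plus strand) was at 18.7 TPM in siCtrl, 16.5 in siG3BP2, 6.0 in siG3BP1 and 12.8 in Total. Each siRNA library was thus the one with the lowest level of its own target, and G3BP1 in siG3BP2 stood at 0.883 times siCtrl. In bulk RNA, fewer cells with a given mRNA and less of it per cell cannot be told apart.

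The cell line showed its defining mRNAs in both libraries. Of 13 markers of noradrenergic neuroblastoma, 12 were above 1 TPM in siCtrl and in siG3BP2, and their summed level was 5920 and 6015 TPM. PHOX2A, a transcription factor of noradrenergic neurons, was at 719 and 783 TPM. DBH, which makes noradrenaline from dopamine, was at 872 and 1098. TH, the first enzyme of the pathway, was the marker near 0, with 0.304 and 0.389. Of 26 markers of other cell types, 7 were above 1 TPM in siCtrl and 6 in siG3BP2, with sums of 52.5 and 64.4. All 6 were fibroblast genes, among them COL1A1 and DCN, while PTPRC of leukocytes, PECAM1 of endothelium and GFAP of astrocytes were listed at 0 in both.

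Arsenite response genes were checked because of the treatment text. None of the 17 was called, and their sum was 407 TPM in siCtrl and 398 in siG3BP2, against 2070 in the arsenite lysate. FOS, an immediate-early transcription factor, was at 2.71 TPM in siCtrl, 1.91 in siG3BP2 and 174 in Total. EGR1, another, was at 8.08, 6.16 and 269. The inducible chaperone gene HSPA1A was at 15, 14.5 and 79.3. Both siRNA libraries lay below the lysate in 13 of the 17 genes and above it in 4, namely SRXN1, OSGIN1, GCLM and KLF6. SRXN1, which restores oxidised peroxiredoxins, was at 31.2 TPM in siCtrl, 24.2 in siG3BP2 and 14.7 in Total.

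Of the 12229 members, 297 were higher in siG3BP2, which is 2.43%, and 687 were lower, which is 5.62%. The other 11245 (92%) kept a ratio between 0.5 and 2. The ratio was above 4 for 74 members and below 0.25 for 197. The log2 ratios had a lower quartile of -0.33, a median of -0.12 and an upper quartile of 0.08, and 65.6% of the members were below 0. Among the 6509 members above 10 TPM in both libraries the median ratio was 0.927. Most members thus lay slightly below their siCtrl level, and this shift is the level against which each gene list is read.

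Among the 7207 members above 10 TPM in at least 1 library, 61 were higher (0.846%) and 149 were lower (2.07%). The spread narrowed with the level. In members whose mean was under 3 TPM, 8.15% were higher and 18% were lower, and the interquartile range of the log2 ratio was 0.62. From 30 to 100 TPM, 0.415% were higher and 0.747% lower, with a range of 0.32. Above 300 TPM, 6 of 310 members (1.94%) were higher, 0 were lower, and the range was 0.21. The median log2 ratio was -0.14 from 10 to 30 TPM and 0.02 above 300 TPM. A call in the lowest band therefore carries less weight than one above 30 TPM.

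**Figure D1:**
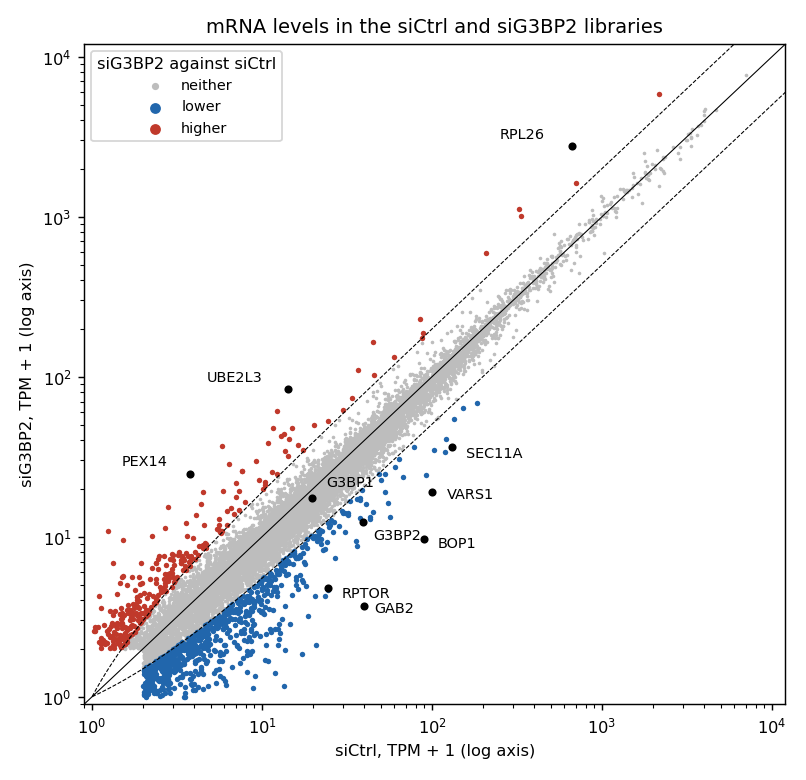
Level of each member in siCtrl (x axis) and siG3BP2 (y axis), as TPM + 1 on log axes. The solid line marks equal levels, the dashed lines mark ratios of 2 and 0.5, and colours mark the 297 higher, 687 lower and 11245 other members. Called members crowd at low levels, and the few abundant ones above the upper line include RPL26.

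**Figure D2:**
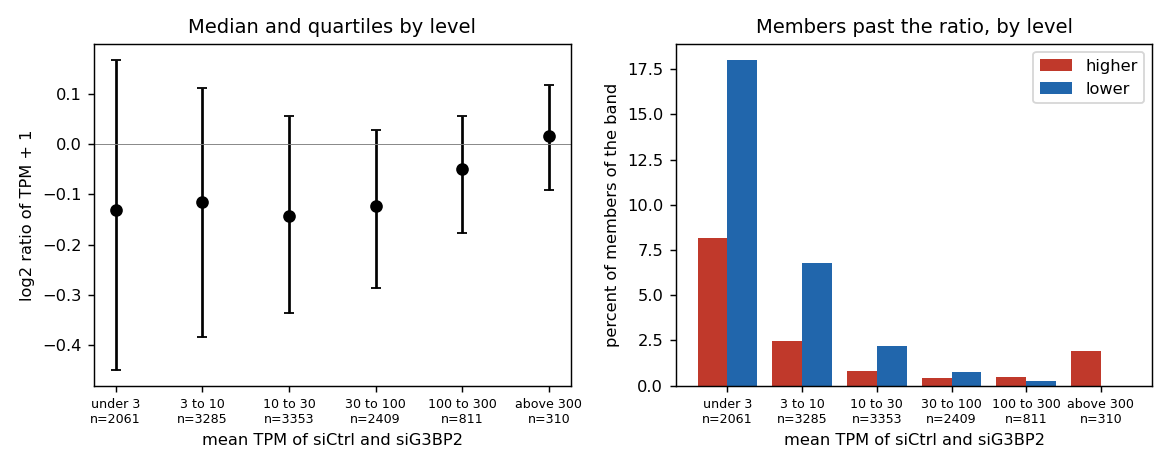
Left, median (point) and quartiles (bars) of the log2 ratio of TPM + 1 in each band of mean TPM. Right, percent of the members of each band with a ratio above 2 (higher) or below 0.5 (lower). The share of called members falls from 18% lower and 8.15% higher under 3 TPM to below 1% of each kind from 30 to 300 TPM.

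The largest ratios above 10 TPM belonged to genes of unrelated functions. PEX14 (chromosome 1, 10472288 to 10630758, plus strand), a docking protein of peroxisomal import, was at 2.79 TPM in siCtrl and 23.8 in siG3BP2. Its level was 25 in siG3BP1 and 29.7 in Total, so siCtrl was the low library of these 4. UBE2L3 (chromosome 22, 21549447 to 21624034, plus strand), a ubiquitin-conjugating enzyme, was at 13.3 TPM in siCtrl and 83.1 in siG3BP2. It was at 12.8 in siG3BP1 and 81.2 in Total, so the libraries fell into a low and a high pair. COA1, a mitochondrial assembly factor, had the same order, with 11.2 TPM in siCtrl, 59.7 in siG3BP2, 13.9 in siG3BP1 and 60.6 in Total.

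In TMEM256, a small membrane protein gene, siCtrl was again the low library, with 4.84 TPM against 35.7 in siG3BP2, 34.3 in siG3BP1 and 34.8 in Total. The prefoldin subunit gene PFDN6, whose product passes nascent chains to the chaperonin, was at 1.82, 14.3, 10.6 and 12.1 TPM in the same order. NGDN, which encodes neuroguidin, a regulator of translation and ribosome maturation, was at 10.6 TPM in siCtrl, 46.7 in siG3BP2, 46.8 in siG3BP1 and 44.1 in Total. In all of these genes both knockdown libraries and the lysate lay above siCtrl.

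PGPEP1 and U2SURP stood apart because Total was close to siCtrl. U2SURP, a U2 snRNP-associated splicing factor, was at 3.35 TPM in siCtrl, 15.1 in siG3BP2, 4.11 in siG3BP1 and 3.07 in Total. PGPEP1, a peptidase that removes N-terminal pyroglutamate, was at 1.69, 10.3, 3.59 and 2.89. For both genes siG3BP2 was the highest of the 4 libraries. RSRC1, a splicing regulator, was at 3.47 TPM in siCtrl and 18.0 in siG3BP2, with 8.46 in siG3BP1 and 16.4 in Total.

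Among the 12 smallest ratios, the readthrough gene IQCJ-SCHIP1 was at 12.4 TPM in siCtrl and 0.173 in siG3BP2, with 10.5 in siG3BP1 and 0.108 in Total. It shares exons with IQCJ and SCHIP1, so the division of reads between these genes is uncertain. GAB2 (chromosome 11, 78215293 to 78418348, minus strand), an adaptor that joins receptors to PI3-kinase and SHP2, was at 38.7 TPM in siCtrl, 2.70 in siG3BP2, 26.3 in siG3BP1 and 1.74 in Total. C19orf81 had the same split, with 19.7, 1.09, 16.9 and 0.888 TPM. So did TNS1, which links integrins to actin, with 17.6, 2.18, 12.3 and 1.04, and PLXNA4, a semaphorin receptor, with 22.6, 3.27, 17.3 and 0.516. In these 5 genes siG3BP2 and Total were low, and siCtrl and siG3BP1 were high.

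HMOX2, the constitutive haem oxygenase, was at 16.2 TPM in siCtrl, 0.844 in siG3BP2, 0.754 in siG3BP1 and 0.613 in Total. Here siCtrl was the one high library. ACACA, acetyl-CoA carboxylase of fatty acid synthesis, had the same order with 12.6, 0.952, 1.27 and 0.814 TPM. ACTN4, an actin crosslinker, was at 23.6, 3.66, 3.85 and 6.41. BOP1, which acts in maturation of the large ribosomal subunit, was at 88.1 TPM in siCtrl, 8.75 in siG3BP2, 77.9 in siG3BP1 and 68.2 in Total. FANCC, of the Fanconi anaemia core complex, was at 10.9, 0.403, 9.24 and 6.18 TPM. In BOP1 and FANCC siG3BP2 was the lowest of the 4 libraries and Total lay nearer to siCtrl. The remaining genes of this group were TTC28, with 11.4 TPM in siCtrl and 1.11 in siG3BP2, and RABGAP1, with 11.6 and 1.28.

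**Figure D3:**
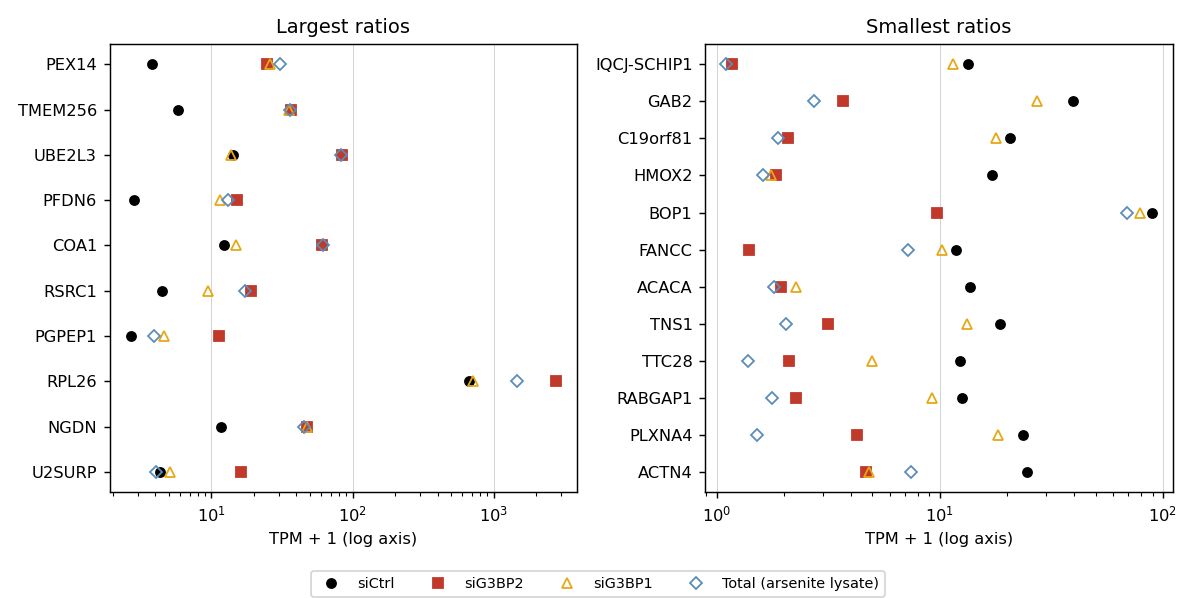
TPM + 1 (log axis) of 10 of the 12 members with the largest ratios above 10 TPM and of the 12 with the smallest, in siCtrl (black circle), siG3BP2 (red square), siG3BP1 (open triangle) and Total (open diamond). In PEX14 and HMOX2 siCtrl stands apart from the other libraries, and in UBE2L3 and GAB2 the libraries fall into pairs.

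The siCtrl library enters every ratio and every call, so where siG3BP1 and Total lie relative to it in called members is not independent of the call. Their values are given side by side as a description. In members without a call, the median log2 ratio of Total to siCtrl was -0.39. Total lay nearer to siG3BP2 than to siCtrl in 67.6% of these members. The share was 82.2% in lower members and 38% in higher ones.

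Called members near genes that share their exons are uncertain in number. Of all members, 2756 had an exon overlapping another gene on the same strand, including 75 of those called higher and 153 of those called lower. Of the 12 largest ratios 4 had such a neighbour, and of the 12 smallest 3 did.

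Cytosolic ribosomal protein mRNAs, which build both subunits of the ribosome, were the most abundant list. Of 80 members, 5 were higher (6.25%) and 0 lower. Among all members 2.43% were higher, and among those above 300 TPM 1.94%. The list median of the log2 ratio was 0.05. It was 0.16 once the median ratio of members above 10 TPM was set to 1, and -0.05 after the log2 ratios were corrected by a straight-line fit on transcript length and GC content. List medians after this fit had the median of all members, -0.12, added back, so they are read against it and not against 0. Of the 5 members called higher, those described here are RPS19 and RPS14 of the small subunit and RPL26 of the large subunit. RPL26 (chromosome 17, 8377516 to 8383213, minus strand) was at 666 TPM in siCtrl, 2764 in siG3BP2, 718 in siG3BP1 and 1465 in Total. RPS19, which is mutated in Diamond-Blackfan anaemia, was at 322, 1121, 410 and 1189. RPS14, named here after its values were seen, was at 331, 1003, 370 and 1131. In these 3 genes siG3BP2 and Total were high and siCtrl and siG3BP1 were low. The 75 ribosomal protein mRNAs without a call summed to 126674 TPM in siCtrl and 125911 in siG3BP2, a ratio of 0.994, and their log2 ratios ran from -0.70 to 0.58. Ribosomal protein genes have many processed pseudogenes, so that reads can be split between near-identical copies and the values of single genes are uncertain.

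Other short, abundant groups had median ratios close to 1. Of 78 mitochondrial ribosomal protein genes, 1 was higher and 0 lower, with a median log2 ratio of -0.0038. The one called was MRPS18B, at 0.136 TPM in siCtrl and 2.57 in siG3BP2. Of 78 respiratory chain and ATP synthase subunits, 3 were higher (3.85%) and 1 lower (1.28%), against 2.43% and 5.62% of all members. Their median was 0.03, which became -0.03 after the fit on length and GC content. ATP5MC2, which encodes the proton-carrying c-ring subunit, was at 206 TPM in siCtrl and 591 in siG3BP2, with 381 in siG3BP1 and 728 in Total. ATP5MK, a small ATP synthase subunit, was at 88.0 and 187 TPM. NDUFA5, an accessory subunit of complex I, was the one called lower, at 27.2 and 10.7.

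The proteasome degrades ubiquitin-tagged proteins. Its 35 members had a median log2 ratio of 0.08, or -0.05 after the same fit, and 1 was called lower. PSMB3, a beta subunit of the catalytic core, was at 119 TPM in siCtrl, 40.1 in siG3BP2, 126 in siG3BP1 and 127 in Total. siG3BP2 was the one low library for this gene. None of 19 glycolysis genes was called. Their median was 0.05, and 0.06 after the fit, both read against the -0.12 of all members. With the median ratio set to 1 it was 0.16, read against -0.02. HK2 had the largest shift above 10 TPM, at 18.3 and 13.5 TPM.

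Translation initiation starts with recognition of the mRNA cap. Of 67 translation factors, 0 were higher and 1 was lower, with a median log2 ratio of -0.04, or -0.07 after the fit. EIF4E, the cap-binding protein, was at 16.4 TPM in siCtrl, 4.19 in siG3BP2, 7.31 in siG3BP1 and 23.4 in Total. The 54 initiation factors had a median of -0.02 and the 13 elongation factors one of -0.15. Of 20 cytosolic aminoacyl-tRNA synthetases, which charge tRNAs with amino acids, 2 were lower (10%, against 5.62% of all members). VARS1 for valine was at 99.3 TPM in siCtrl, 18.1 in siG3BP2, 18.6 in siG3BP1 and 16.1 in Total, and CARS1 for cysteine was at 35.4, 16.3, 25.3 and 30.5.

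Stress granule proteins were the mRNAs closest to the function of G3BP2. Of 52 members, 2 were higher and 2 lower, including G3BP2 itself (3.85% each, against 2.43% and 5.62% of all members). The median log2 ratio was -0.13, close to that of all members. The median was -0.17 for 13 scaffolds, -0.08 for 18 other RNA-binding proteins, -0.10 for 14 factors of translational repression and -0.15 for 7 of granule clearance. Both higher members were a scaffold and a chaperone. PRRC2A, a large RNA-binding protein, was at 29 TPM in siCtrl, 61.0 in siG3BP2, 20.6 in siG3BP1 and 12.4 in Total. HSPB8, a small heat shock protein that helps clear granules, was at 0.365, 2.43, 2.39 and 0.538. The other called lower was EIF4E.

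In mTOR and TSC signalling, the pathway that couples nutrients to growth and in which G3BP proteins anchor the TSC complex to lysosomes, 1 of 29 members was higher and 1 lower. These calls were 3.45% each, against 2.43% and 5.62% of all members. The median log2 ratio was -0.18, or -0.11 after the fit. TBC1D7, the third subunit of the TSC complex, was at 6.63 TPM in siCtrl, 24.6 in siG3BP2, 16 in siG3BP1 and 20.4 in Total. RPTOR, which recruits substrates to mTORC1, was at 23.3, 3.81, 20.1 and 1.66. The 7 downstream members had a median of -0.06 and none was called. In Ras and MAP kinase signalling 1 of 28 was higher and 1 lower (3.57% each). They were the Ras inhibitor NF1, at 0.948 and 2.32 TPM, and the Ras activator SOS1, at 11.9 and 5.71.

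Of 47 lysosome and autophagy genes, 2 were higher (4.26%, against 2.43% of all members) and 0 lower. The median log2 ratio was -0.09, or -0.0084 after the fit. ATG7, which activates the ubiquitin-like proteins of autophagy, was at 0.615 TPM in siCtrl, 3.96 in siG3BP2, 0.434 in siG3BP1 and 7.70 in Total. The sialidase NEU1 was at 1.14 and 2.30, with 2.28 in siG3BP1.

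Disturbed proteostasis is known to engage a set of stress pathways, whose genes had median levels of 39.2, 40.6 and 147 TPM in the lists below, a range where few members were called overall. None of 36 genes of the integrated stress response and unfolded protein response was called, with a median log2 ratio of -0.08 and log2 ratios from -0.55 to 0.28. ATF5 had the largest shift above 10 TPM, at 16.5 and 11.4 TPM. None of 21 NRF2 targets was called, with a median of -0.15, or -0.21 after the fit. KEAP1, the repressor of NRF2, was at 73.3 and 53.2. Of 28 heat shock chaperone genes 1 was lower, the regulator HSF1, at 39.7 TPM in siCtrl, 14.9 in siG3BP2, 38.4 in siG3BP1 and 12 in Total. The list median was -0.02, and it was 0.09 after the median ratio was set to 1 and -0.07 after the fit.

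Of 21 genes of the response to interferon and double-stranded RNA, 0 were higher and 3 lower (14.3%, against 5.62% of all members). The median log2 ratio was -0.16. The median level was 6.59 TPM, and from 3 to 10 TPM 6.76% of all members were lower. OAS3, which makes the activator of RNase L, was at 9.66 TPM in siCtrl and 4.02 in siG3BP2. The transcription factor IRF1 was at 2.85 and 1.40, and BST2, which tethers budding virus, was at 1.81 and 0.459. NR4A3, a nuclear receptor, was the one lower member of 19 immediate-early genes, at 1.52 and 0.695 TPM.

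Further abundant genes with low values in siG3BP2 alone were SEC11A and MACROH2A2. SEC11A, a catalytic subunit of signal peptidase, was at 130 TPM in siCtrl, 35.4 in siG3BP2, 152 in siG3BP1 and 171 in Total. MACROH2A2, a histone variant of repressed chromatin, was at 152, 62.6, 141 and 157 TPM. The most abundant row called lower was ENSG00000288608, a gene model of 51 bases inside SLC4A2, whose reads cannot be told apart from those of SLC4A2. It was at 183 TPM in siCtrl, 67.1 in siG3BP2, 85.1 in siG3BP1 and 71.5 in Total, so here siCtrl was the one high library.

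Chromatin modifiers had one of the higher shares of lower calls. Of 56 members, 1 was higher (1.79%) and 10 were lower (17.9%), against 5.62% of all members, and the median log2 ratio was -0.34. These mRNAs are long, with a median transcript of 8438 nt, and their median was -0.18 after the fit on length and GC content. CREBBP, a histone acetyltransferase, was at 14.9 TPM in siCtrl, 6.41 in siG3BP2, 14.3 in siG3BP1 and 0.777 in Total. DOT1L, which methylates lysine in the histone H3 core, was at 29.9, 13.2, 24.5 and 11.6. CHD8, a remodeller linked to autism, was at 24.4, 11.7, 24.1 and 4.94. KDM6A, a demethylase of histone H3, was the one higher, at 1.38 and 4.13.

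Growth factor and receptor genes of neuroblastoma had 2 higher and 9 lower of 26 members (34.6% lower), with a median log2 ratio of -0.28, or -0.18 after the fit. IGF2R, which clears IGF2, was at 19.0 TPM in siCtrl, 8.88 in siG3BP2, 14.9 in siG3BP1 and 3.19 in Total, and the insulin receptor INSR was at 4.6, 2.20, 4.21 and 1.15. IGF2, the growth factor itself, was at 11.9 TPM in siCtrl, 41.5 in siG3BP2, 13.7 in siG3BP1 and 11.1 in Total. It overlaps INS-IGF2, which can share its reads. BDNF, a neurotrophin, was at 0.519 and 1.12. The median level of the list was 5.28 TPM, and in the band from 3 to 10 TPM 6.76% of all members were lower.

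Ion channel genes set the excitability of neurons. Of 45 potassium, sodium and calcium channel genes, 1 was higher and 8 lower (17.8%), 7 of them among the 28 potassium channel genes. Of all members 5.62% were lower. The median level of the list was 4.07 TPM, and from 3 to 10 TPM 6.76% of all members were lower, under 3 TPM 18%. The list median was -0.23, or -0.10 after the fit. KCNAB2, an auxiliary subunit, was at 7.71 TPM in siCtrl, 0.938 in siG3BP2, 5.48 in siG3BP1 and 3.09 in Total. KCNH1, the EAG channel, was at 6.85, 1.65, 1.44 and 0.924, and KCNC1, a Kv3 channel, at 8.71, 4.30, 6.29 and 0.337. CACNB2, a calcium channel beta subunit, was the one higher, at 0.879 and 2.03.

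Of 186 solute carriers, the transporters of small molecules, 4 were higher and 18 lower (9.68%, against 5.62% of all members). Their median log2 ratio was -0.22, and -0.13 after the fit. The median level was 8.32 TPM, and from 3 to 10 TPM 6.76% of all members were lower. The zinc transporter SLC39A4 was at 8.19 TPM in siCtrl, 28.5 in siG3BP2, 39.8 in siG3BP1 and 16.9 in Total. Its relative SLC39A9 was at 20.9 and 10.1, and the iron importer of mitochondria SLC25A37 was at 15.8 and 6.49.

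Several neuronal lists had medians below the -0.12 of all members. Those described next moved up, toward or past that level, after the fit on length and GC content. Catecholamine synthesis and transport, given further below, moved down. Of 28 synaptic vesicle and exocytosis genes, 0 were higher and 3 lower (10.7%, against 5.62% of all members). Their median log2 ratio was -0.17, or -0.15 after the fit. UNC13B, a priming factor of vesicles, was at 11.4 TPM in siCtrl, 1.64 in siG3BP2, 11.7 in siG3BP1 and 0.720 in Total. BSN and PCLO, giant scaffolds of the active zone, were at 7.45 and 3.12 and at 2.58 and 0.402. Of 35 axon guidance genes, 3 were higher and 3 lower (8.57% each, against 2.43% and 5.62% of all members). Their median was -0.25, and -0.09 after the fit. The higher ones were receptors, namely ROBO1, at 2.19 and 6.64 TPM, ROBO2, at 0.926 and 2.06, and NRP1, at 0.559 and 1.71. The lower ones were the receptor PLXNA4 and the ligands SEMA6A, at 6.45 and 2.09, and SEMA5A, at 6.30 and 1.03.

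Of 33 neurite cytoskeleton genes 2 were lower (6.06%, against 5.62% of all members), and none of the 12 tubulins was called. The list had a median log2 ratio of -0.16 that was -0.08 after the fit. MAPT (chromosome 17, 45894527 to 46028334, plus strand), which encodes tau, was at 13.6 TPM in siCtrl, 1.86 in siG3BP2, 4.68 in siG3BP1 and 0.656 in Total. DCLK1, a microtubule-associated kinase, was at 2.07 and 0.864. Of 48 motor genes, 2 kinesins were lower (4.17%). KIF26B was at 10.9 TPM in siCtrl, 1.64 in siG3BP2 and 9.74 in siG3BP1, and KIF21B at 8.53, 2.98 and 6.0. The 16 dynein and dynactin genes had 0 calls and a median of -0.05.

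Spectrins, ankyrins and giant cytolinkers have the longest mRNAs of the lists, with a median of 14084 nt. Of 12 members 2 were higher (16.7%) and 1 lower (8.33%), against 2.43% and 5.62% of all members. MACF1, which joins actin to microtubules, was at 9.34 TPM in siCtrl, 20.1 in siG3BP2, 11.4 in siG3BP1 and 0.463 in Total, and SYNE2, a giant nesprin, was at 2.73, 5.95, 2.47 and 1.70. PLEC, which encodes plectin, was at 29.8, 9.72, 9.27 and 3.89. Calls in this list thus lay on both sides, while 9 of the 12 members had log2 ratios below 0. The list median was -0.26, or -0.06 after the fit.

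Cell adhesion genes of the nervous system had 2 higher and 2 lower of 22 (9.09% each, against 2.43% and 5.62% of all members). Their median log2 ratio was -0.30, or -0.15 after the fit. NCAM1 was at 4.61 TPM in siCtrl and 10.9 in siG3BP2, and CNTN4 at 0.502 and 2.1, while CNTN2 was at 8.30 and 3.93 and LRRTM1 at 3.17 and 0.693. In 35 extracellular matrix genes 2 were higher (5.71%) and 1 lower (2.86%), with a median of -0.25 that was -0.03 after the fit. The proteoglycan LUM was at 5.81 and 12.8 TPM, with 15.4 in Total, COL5A1 at 3.6 and 7.66, and the microfibril gene FBN1 at 7.04 and 3.05.

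Identity genes of the line were called in some lists and not in others. None of 23 adrenergic transcription factors was called, with a median log2 ratio of -0.11 and log2 ratios from -0.54 to 0.65, the highest being SOX11, at 33.0 and 52.5 TPM. None of 14 genes of catecholamine synthesis and transport was called, with a median of -0.24 that moved down to -0.31 after the fit. CYB561, an electron carrier of secretory granules, was at 219 TPM in siCtrl, 126 in siG3BP2 and 117 in siG3BP1. Among 16 mesenchymal neuroblastoma markers, 2 were lower (12.5%, against 5.62% of all members), the receptors NOTCH2, at 11.6 and 1.87 TPM, and NOTCH1, at 2.78 and 0.889. The median of this list was -0.39, the lowest of all lists, but -0.27 after the fit and -0.13 over its 11 members above 10 TPM. SCG5, a chaperone of prohormone convertase, was the one higher of 13 secretory granule and neuropeptide genes (7.69%, against 2.43% of all members), at 1.26 and 9.17.

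Replication-dependent histone mRNAs end in a stem-loop and lack a poly-A tail, so poly-A libraries hold little of them. Of 31 members, 2 were higher (6.45%) and 8 lower (25.8%), and their median level was 2.39 TPM. Among all members under 3 TPM, 8.15% were higher and 18% lower. H3C12 was at 4.05 TPM in siCtrl and 1.69 in siG3BP2, H2AC13 at 3.01 and 1.47 and H2AC17 at 2.47 and 0.948. H3C6 and H2BC4 were higher, at 0.891 and 2.58 and at 0.505 and 1.83. H3C14 and H3C15 were listed at 0 in siG3BP2, with 2.49 and 2.54 TPM in siCtrl. The only other member listed at 0 there was ENSG00000288716, at 1.07 TPM in siCtrl. These near-identical genes can exchange reads.

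Cell cycle genes cover DNA replication and mitosis here. Of 46 DNA replication genes, at a median of 33.4 TPM, 1 was lower (2.17%), against 0.747% of all members from 30 to 100 TPM and 2.18% of those from 10 to 30. It was the polymerase subunit POLA1, at 7.14 TPM in siCtrl, 1.85 in siG3BP2 and 1.02 in siG3BP1. None of 39 mitosis genes, at a median of 29.9 TPM, was called. Their median log2 ratio was -0.01, or -0.04 after the fit, and INCENP of the chromosomal passenger complex had the largest shift, at 47.8 and 28.8 TPM. Of 26 cholesterol genes none was called.

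RNA-processing genes included SR proteins and hnRNPs, which bind pre-mRNA. None of these 47 genes was called, with a median log2 ratio of -0.02, and HNRNPD, which binds AU-rich elements, had the largest shift, at 170 TPM in siCtrl, 311 in siG3BP2, 185 in siG3BP1 and 373 in Total. Of 45 genes of microRNA and mRNA decay, 3 were lower (6.67%, against 5.62% of all members). AGO1, an Argonaute, was at 7.40 and 2.94 TPM, the deadenylase CNOT6L at 2.62 and 0.951, and TNRC6B, which recruits deadenylases to Argonaute, at 1.30 and 0.141. The 13 microRNA genes of this list had a median of -0.31 and the 7 decapping genes one of 0.02. In 417 zinc finger genes named ZNF, 26 were higher (6.24%) and 31 lower (7.43%), against 2.43% and 5.62% of all members, at a median level of 3.86 TPM. ZNF207, a spindle assembly protein, was the most abundant of those called, at 91.2 TPM in siCtrl, 23.2 in siG3BP2, 88.5 in siG3BP1 and 41.6 in Total.

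Disease genes were spread over both sides. Of 27 genes of ALS, FTD and polyglutamine disease, 1 was higher and 3 lower (11.1%, against 5.62% of all members). The median log2 ratio was -0.04. HTT (chromosome 4, 3041363 to 3243957, plus strand), mutated in Huntington disease, was at 17.0 TPM in siCtrl, 3.89 in siG3BP2, 4.98 in siG3BP1 and 1.72 in Total. ATXN3 was at 3.69, 0.632, 0.512 and 2.11, and the mitochondrial protein gene CHCHD10 at 76.9, 35.6, 77.3 and 26.4. OPTN, an autophagy receptor, was at 2.35, 6.19, 5.34 and 4.73. Of 7 Alzheimer disease genes that the study names, MAPT was the one called. APP, the precursor of amyloid beta, was at 262 and 206 TPM, and ADAM10, an alpha-secretase, at 3.98 and 4.03.

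Of 13 RNAs that the study followed individually, a list not independent of these libraries, 2 were higher, among them NGDN, and 3 lower (HMOX2, MAPT and HTT). The others kept a ratio between 0.5 and 2. The G3BP-bound mRNAs SPTBN1, PRKCA and TCF4 were at 73.8 and 56.8, 54.2 and 35.8, and 21.0 and 20.3 TPM. The short abundant mRNAs MIF, EBPL and TPT1 were at 870 and 972, 77.5 and 86.6, and 580 and 572.

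**Figure D4:**
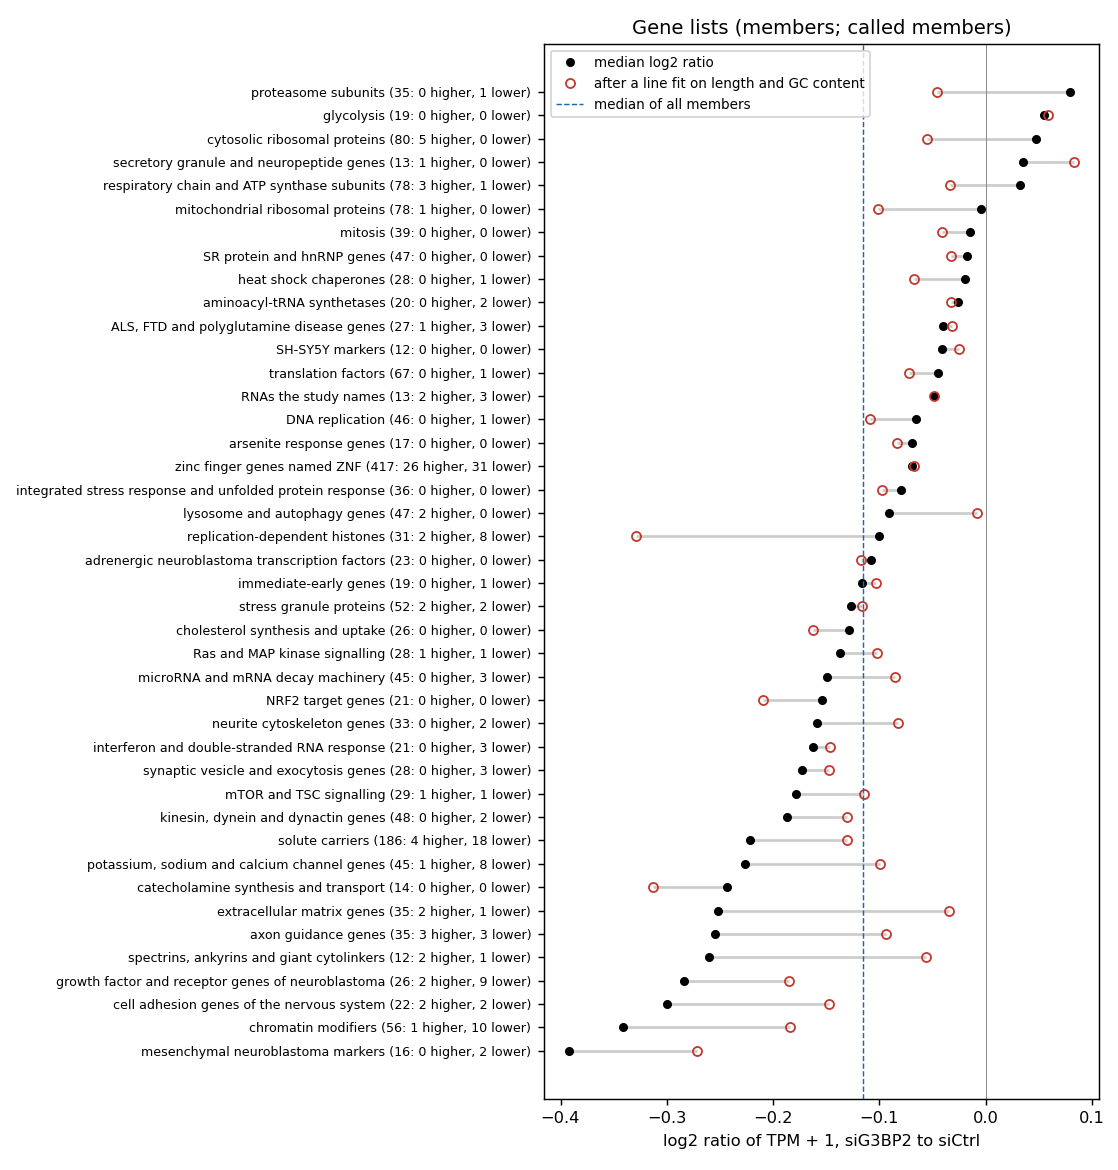
Median log2 ratio of TPM + 1 of gene lists with at least 10 members (black), and the same after a straight-line fit on transcript length and GC content (open red). The dashed line is the median of all members, -0.12. Proteasome, glycolysis and cytosolic ribosomal protein genes lie highest, and chromatin modifiers and mesenchymal markers lowest, with most lists of long mRNAs moving to the right after the fit.

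By symbol stem, 86 gene families had at least 15 members. The 5 highest median log2 ratios were those of TRMT (tRNA methyltransferases, 0.10), DNAJC (J-domain cochaperones, 0.05), RPL (0.04), RPS (0.02) and TIMM (inner-membrane import, 0.01). The 5 lowest were those of ARHGEF (-0.43) and FBXL (-0.43), followed by SH (-0.32), LRRC (-0.31) and ARHGAP (-0.31). ARHGEF and ARHGAP genes switch small GTPases on and off, and FBXL genes encode substrate receptors of ubiquitin ligases. Of 17 ARHGEF members 1 was lower and 0 higher, and all had log2 ratios below 0, from -0.75 to -0.08.

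Members called lower had longer transcripts than the others. The longest annotated transcript had a median of 3821 nt in higher members, 5165 in lower ones and 3686 in the others. The coding sequence differed likewise, at 1484, 1902 and 1214 nt, as did the 3′UTR, at 1440, 2082 and 1517. Median GC content was 45.1% in higher members, 50.6% in lower ones and 48.9% in the others. Above 10 TPM, median lengths were 3198 nt in higher, 4986 in lower and 3249.5 in other members, and median GC contents were 51.4%, 54.1% and 51.9%. There the higher members were close to the others in both features, and the lower ones remained longer. Among members in the longest quintile of transcripts 10.7% were lower, against 3.68% in the shortest quintile, while their median levels were 5.91 and 28.3 TPM. In the quintile of lowest GC content 4.01% were higher and 3.97% lower, and in that of highest GC content 1.96% and 5.24%. Across genes above 10 TPM, which are not independent replicates, Spearman's rho of the log2 ratio was -0.31 with transcript length, -0.34 with coding length and -0.28 with GC content. The part of length and GC content in the calls was not tested.

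**Figure D5:**
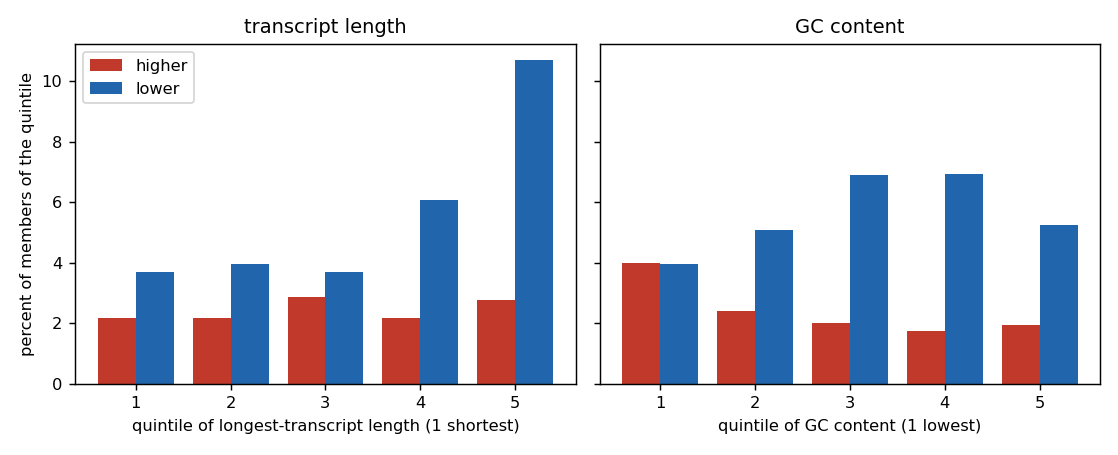
Percent of members called higher (red) or lower (blue) in each quintile of longest-transcript length (left) and of GC content (right). The lower calls reach 10.7% in the longest quintile, and the higher calls reach 4.01% in the quintile of lowest GC content.

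The readouts of stress granules and of binding came from other libraries, but the SG ratio has Total as its denominator. The median log2 ratio of Total to siCtrl was 0.19 in higher, -1.10 in lower and -0.39 in other members. A low Total raises the SG ratio, so the SG shares and the rho below are not independent of the Total level. The part of Total in them was not tested. SG-enriched members had a ratio of TPM + 1 in granule cores to Total above 2, and SG above 1 TPM. The paper describes its own class by a fold change above 2, with no pseudocount named. SG-enriched members made up 65% of higher, 79.6% of lower and 58.6% of other members. Above 10 TPM the shares were 41%, 76.5% and 46.3%. SG-depleted members, with that ratio below 0.5 and Total above 1 TPM, were 31.1%, 6.71% and 16.5% there. Spearman's rho between the log2 ratios of knockdown and of SG to Total was -0.40 across the 7207 genes above 10 TPM, which share their length and GC content with both measures. In the rRNA-depleted libraries, the median log2 ratio of the signal of arsenite-treated to untreated cells was 0.11 in the 55 higher, 0.08 in the 125 lower and 0.23 in the 6854 other members that were above 10 TPM and had a signal. Without the limit of 10 TPM, the medians were 0.29 in 241 higher, 0.21 in 575 lower and 0.26 in 10615 other members. By the plain ratio of TPM, 10 genes among the 12 smallest ratios were above 2 times their Total level in SG, and among the 12 largest 3 were.

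G3BP2 eCLIP values of untreated cells are log10 values per gene, averaged here over 2 replicates. Their medians were 2.71 in higher, 2.83 in lower and 2.37 in other members. Above 10 TPM they were 2.30, 2.67 and 2.29. The genes also differed in genomic span, with medians of 57508 bases in higher, 71663 in lower and 30586 in other members. Taken off the log10 scale and divided by the span in kb, the values had medians of 9.95, 10.4 and 8.71 in the same order. The log10 values were not divided by mRNA length or level. The part of span, length or level in these differences was not tested. Per gene, RPTOR had 4.02 and 3.73 and MAPT 2.61 and 2.18 in replicates 1 and 2. HMOX2 and PFDN6 were listed at 0 in both.

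The palindromic sequence that the study found in G3BP-bound RNA, CCAGCCTGG or CCAGGCTGG, was searched in the longest transcript of each gene. These forms are the reverse complements of each other, so both strands are covered. At least 1 match was found in 44.4% of higher, 42.1% of lower and 40.2% of other members, and above 10 TPM in 47.5%, 47% and 38.3%. Of the leading genes, PGPEP1 had 8 matches, COA1 and TNS1 had 3 each, and PEX14, UBE2L3, GAB2, HMOX2 and G3BP2 had 0. The following window on GRCh38, with the match in capitals, shows 1 site of a gene called lower. It is written 5′ to 3′ in the sense of the transcript.
TNS1, coding sequence, chr2:217848332-217848360, minus strand: ggggccccacCCAGCCTGGccacagccag
A match is a description of the letters and not of a bound site.

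By chromosome, the median log2 ratio ran from -0.19 on chromosome 22 to -0.03 on chromosome 18, with median GC contents of 57.0% and 42.9% of their members. Chromosome 6 had the highest share of higher calls, 4.48%. In its window from 28 to 34 Mb, which holds the major histocompatibility complex (MHC), 8 of 96 members were higher (8.33%) and 12 were lower (12.5%). On the rest of chromosome 6 the shares were 3.72% and 5.99%, and on all other chromosomes 2.33% and 5.55%. PFDN6, PRRC2A, MRPS18B, NEU1 and VARS1 lie in this window. Members listed at 0 in both G3BP2 eCLIP replicates also had more calls, with 5.84% of 257 higher and 10.5% lower, against 2.36% and 5.51% of the 11972 others. Among those above 10 TPM it was 3.17% and 12.7% of 126, including HMOX2, PSMB3 and CHCHD10. Why these rows are at 0 in eCLIP was not tested.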

How the data were processed

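Poly-A libraries of SH-SY5Y cells were sequenced by the authors, 1 per siRNA, aligned to GRCh38 with HISAT2 2.1.0 and quantified with StringTie on GENCODE. The authors deposited these values as TPM for protein-coding genes. They deposited the rRNA-depleted values per transcript, treated here as a signal because each column sums to more than TPM can, and the eCLIP values per gene and replicate on a log10 scale. Which steps the eCLIP values include is not stated.

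Members were the rows above 1 TPM in siCtrl or siG3BP2. Calls used ratios above 2 or below 0.5, and log2 ratios a pseudocount of 1. With 1 library per side no test was made, and TPM gives no depth. The ratio rule was tested on simulated data. Rows were matched by Ensembl ID to GENCODE release 44, another release than the authors', and 12218 of the 12229 members were found. In all, 22 rows of genes shared by X and Y are listed doubly and stayed in the counts.

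Named genes were G3BP2 and G3BP1, the 12 largest and 12 smallest log2 ratios above 10 TPM, the 4 most abundant called in each direction, the RNAs the study names, and per list up to 3 called members in each direction by level, or the largest shift above 10 TPM where none was called. RPS14, H3C14, H3C15, ENSG00000288716 and genes of the marker, arsenite and position checks fall outside this rule. Some genes that the rule names, and the list and sequences that go with them, are not reported here. The members and lists were chosen with earlier results of these data known, and the line fit on length and GC content was added after the data had been seen. Figures were drawn with matplotlib 3.10.9, and values computed in pandas 2.3.3 under Python 3.11.15.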

Additional observations from a re-analysis of the deposited data

How the results depend on the processing

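Each value rests on 1 library a side, and TPM gives no depth. No paired analysis was possible because the comparison comes from no test and has 1 library in each group.

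The counts of 297 higher and 687 lower members became 604 and 1648 at a ratio of 1.5, 74 and 197 at a ratio of 4, 150 and 353 with TPM + 1, 115 and 292 above 5 TPM, 61 and 149 above 10 TPM, and 1192 and 1805 without a filter. The lower calls outnumbered the higher ones in each of these. With TPM + 0.1, a mean above 1 TPM, either scaling, no overlapping genes or the line fit, both counts stayed within 1.5 times. With bands set by the siG3BP1 level, the band from 100 to 300 TPM held 2 higher and 4 lower members in place of 4 and 2, and the counts of the other bands stayed within 1.5 times.

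With the median ratio of members above 10 TPM set to 1, which moved the median of all members from -0.12 to -0.02, list medians were -0.018 for stress granule proteins, 0.16 for cytosolic ribosomal proteins, 0.10 for mitochondrial ribosomal proteins, 0.14 for respiratory chain and ATP synthase subunits, 0.19 for proteasome subunits, 0.064 for translation factors, 0.039 for DNA replication, 0.018 for zinc finger genes named ZNF, -0.0034 for adrenergic neuroblastoma transcription factors, -0.074 for synaptic vesicle and exocytosis genes, 0.16 for glycolysis, 0.089 for heat shock chaperones, -0.0092 for immediate-early genes, 0.092 for SR protein and hnRNP genes, 0.012 for lysosome and autophagy genes, -0.13 for solute carriers. After the fit on length and GC content, an alternative chosen after seeing the data, medians were -0.055 for cytosolic ribosomal proteins, -0.10 for mitochondrial ribosomal proteins, -0.034 for respiratory chain and ATP synthase subunits, -0.045 for proteasome subunits, -0.15 for synaptic vesicle and exocytosis genes, -0.10 for potassium, sodium and calcium channel genes, -0.18 for chromatin modifiers, -0.13 for solute carriers. Over list members above 10 TPM, the median was -0.21 for zinc finger genes named ZNF. The other list medians stayed within the 95% order-statistic interval of the main median over their genes.

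Median G3BP2 eCLIP values ranged, over leaving out either replicate, from 2.53 to 2.87 in higher, 2.64 to 3.0 in lower and 2.21 to 2.56 in other members. With the mean over annotated transcripts in place of the longest, median lengths were 1650, 2118 and 1670 nt in higher, lower and other members, and median GC contents were 51.6% in lower and 50.5% in other members. The cause of these differences was not tested.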
